A study of Mus musculus with 4 samples.

Results

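Genes that move, store and sense zinc, iron and copper were followed in bulk RNA of mouse pancreatic islets, small organs that secrete insulin and other hormones. The set held 39 of the 55536 genes in the deposited count table, taken by symbol alone: the zinc exporters Slc30a1 to Slc30a10, the zinc importers Slc39a1 to Slc39a14, the metallothioneins Mt1 to Mt4, and Mtf1. It also held the iron genes Tfrc, Slc11a1, Slc11a2, Slc40a1, Fth1 and Ftl1, and the copper genes Slc31a1, Slc31a2, Atp7a and Atp7b. There were 4 libraries of polyadenylated RNA from male C57BL/6 mice aged 8 weeks, 2 insulin-depleted and 2 non-depleted. All islets were freed by collagenase digestion. The insulin-depleted libraries went through a panel that removes insulin sequences during library preparation, so the comparison asks whether removing insulin reads altered the measured levels of these genes. The labels call the 2 libraries of a group biological replicates and do not say whether animals were shared, so a p-value reflects only how far these libraries spread, which may be technical.

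The counts without the insulin genes Ins1 and Ins2 summed to 19278430 and 64858544 in insulin-depleted libraries, against 48510880 and 58127371 in non-depleted libraries. Levels are CPM, the usual depth-scaled count, here relative to those totals. Where a group has a pair of values, the first is replicate 1 and the other replicate 2. Levels of different genes are compared only per exon length, as TPM of the same genes. Ins1 and Ins2 made up 0.195% and 0.264% of all counts in insulin-depleted libraries, against 4.14% and 3.97% in non-depleted libraries. The islet label held against markers, with the amylin gene Iapp at 17998 ± 632 CPM in insulin-depleted and 18078 ± 965 CPM in non-depleted libraries (SD, n = 2 each). Acinar cells, the enzyme-secreting cells around islets, were also present. Their 26 markers, each with counts in some library, summed to 19523 and 8186 CPM in insulin-depleted libraries, against 19531 and 8147 CPM in non-depleted libraries. In bulk RNA, fewer cells of a type and less RNA per cell cannot be told apart.

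Zinc is packed with insulin in the granules of beta cells, and the granule transporter encoded by Slc30a8 carries it there. ZnT proteins move zinc out of the cytosol, into vesicles or out of the cell, and ZIP proteins move it into the cytosol. Metallothioneins bind zinc and copper, and the zinc-sensing factor MTF1 activates their genes through metal response elements. Cellular iron is set by uptake through the transferrin receptor, export through ferroportin and storage in ferritin. Iron regulatory proteins bind hairpins in these mRNAs, slowing translation from the 5' UTR and protecting the transcript from the 3' UTR. Copper enters through CTR1 and is pumped into the secretory route by the ATPases ATP7A and ATP7B.

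The upstream windows of Mt2 and Mt1 are shown because these neighbouring genes stood at place 1 and place 3 of the set by level and carry the textbook metal response element. The element was searched as TGCACNC or TGCGCNC on both strands in the 250 bases before RefSeq's annotated start (GRCm38.p6), and capitals mark the matches. Mt2 (chr8:94172368-94172617, plus strand) held 3 matches, beginning 223, 128 and 50 bases before the start. Mt1 (chr8:94178839-94179088, plus strand) held 1, beginning 23 bases before its annotated start. The counts of matches depend on the start chosen, so those of Mt2 and Mt1 are not compared. The longest annotated transcript of Mt1 has 1085 bases and its principal transcript 549, and bases past the printed window were not searched.
Mt2: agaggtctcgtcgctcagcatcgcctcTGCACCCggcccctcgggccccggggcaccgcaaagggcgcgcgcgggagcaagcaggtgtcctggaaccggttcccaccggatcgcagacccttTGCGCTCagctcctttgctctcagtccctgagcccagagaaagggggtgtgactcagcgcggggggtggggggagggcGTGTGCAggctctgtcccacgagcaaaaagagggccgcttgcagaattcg
Mt1: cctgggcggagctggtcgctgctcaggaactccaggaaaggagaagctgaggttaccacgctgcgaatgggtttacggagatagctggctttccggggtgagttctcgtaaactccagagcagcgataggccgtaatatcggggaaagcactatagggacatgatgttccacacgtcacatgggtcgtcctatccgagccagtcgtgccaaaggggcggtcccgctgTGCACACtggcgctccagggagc

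Of the 32851 windows in the RefSeq table, 21.4% held at least 1 match and 1.26% at least 3. Windows were at hand for 33 of the 39 genes, some with several. A match was present in 18 of their 40 windows, or 45%, and in 17 of the 33 genes, and Slc30a10 was the other gene with 3, of which 2 overlap. A match is a description of the letters, not a tested site.

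The hairpins of the iron genes are shown because uptake and storage genes carry them at opposite ends of the mRNA. The search asked for a C, any 5 bases, the loop CAGTGN and 5 bases pairing with the first 5 (G with T allowed) in annotated UTRs of protein-coding transcripts (GENCODE M21, GRCm38). Matches in a 5' UTR were found for Fth1, Ftl1 and Slc40a1, and Tfrc had 4 in its 3' UTR. Slc11a2 had no match. The pattern allows no mismatch or bulge among the 5 paired bases and can miss hairpins, so a gene without a match may still carry one. Among 21901 protein-coding genes, 0.142% had a match in a 5' UTR and 0.589% in a 3' UTR. The matches of Fth1, Ftl1 and Tfrc are written with 6 bases on either side and the loop in capitals, and that of Slc40a1 is not printed.
Fth1, chr19:9982732-9982760, plus strand: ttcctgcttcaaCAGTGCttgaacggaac
Ftl1, chr7:45459779-45459807, minus strand: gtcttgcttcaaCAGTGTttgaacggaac
Tfrc, chr16:32631219-32631247, plus strand: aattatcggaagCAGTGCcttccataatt
Tfrc, chr16:32631598-32631626, plus strand: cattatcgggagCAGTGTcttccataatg
Tfrc, chr16:32631663-32631691, plus strand: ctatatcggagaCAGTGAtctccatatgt
Tfrc, chr16:32631710-32631738, plus strand: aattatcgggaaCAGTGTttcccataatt

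Metallothioneins and ferritin dominated the set. Per length, metallothioneins made up 62.5% of the summed TPM of all 39 genes and the ferritin genes 28.2%, against 3.42% for zinc exporters and 3.51% for zinc importers. Mt2 led in every library, with 6273 and 6559 TPM in insulin-depleted libraries, against 6460 and 6714 TPM in non-depleted libraries, which placed it at 11 among all genes other than Ins1 and Ins2. Ftl1, the ferritin light chain, had 3549 ± 60.9 TPM in insulin-depleted and 3582 ± 54.5 TPM in non-depleted libraries. Mt1 had 2344 ± 26.3 TPM in insulin-depleted and 2400 ± 126 TPM in non-depleted libraries, and Fth1, the heavy chain that oxidises iron for storage, had 442 ± 33.7 and 443 ± 14.4 TPM (SD, n = 2 each). The first 7 genes kept apart from each other in all libraries, Tfrc at place 7 overlapped with Slc30a4 after it, and 20 of all 36 neighbouring pairs overlapped. With the APPRIS principal transcript as the length, an alternative chosen after seeing the data, Mt1 stood above Ftl1.

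**Figure D1:**
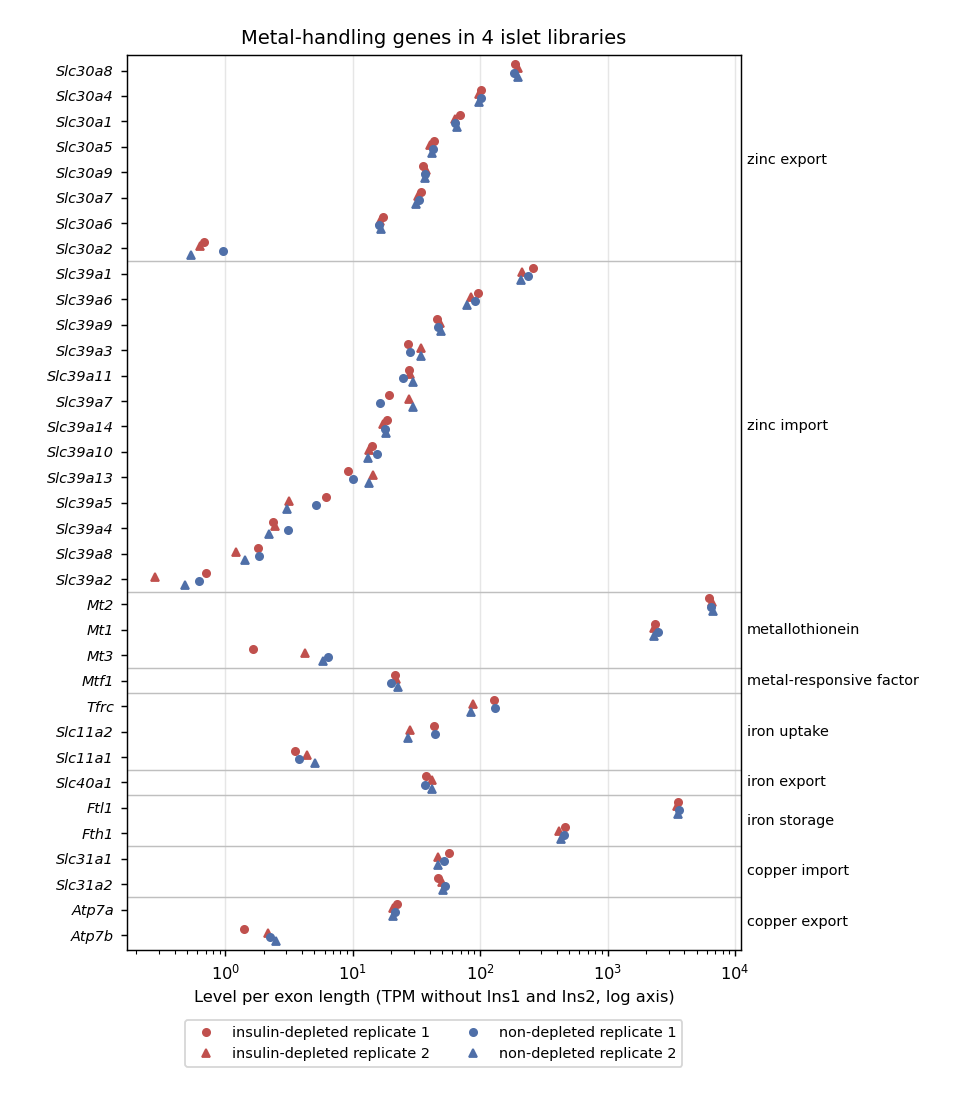
Level per exon length (TPM without Ins1 and Ins2, log axis) of the 35 tested genes in each of the 4 libraries, by metal and direction; circles are replicate 1, triangles replicate 2, red insulin-depleted and blue non-depleted. Mt2 and Ftl1 lie furthest right, Slc30a8 leads the zinc exporters, and Tfrc and Slc11a2 split by replicate and not by group.

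Among zinc exporters, Slc30a8 led per length, with 194 ± 7.21 TPM in insulin-depleted and 191 ± 8.64 TPM in non-depleted libraries (SD, n = 2 each). In CPM it had 111 and 113 in insulin-depleted libraries, against 109 and 112 in non-depleted libraries. Its log2 fold change was 0.02, with a 95% interval of -0.16 to 0.20. This was one of the steadiest genes of the set, and the groups overlapped. Slc30a4, which fills intracellular vesicles, followed with 166 and 156 CPM in insulin-depleted libraries, against 167 and 154 CPM in non-depleted libraries. Slc30a1, the exporter of the cell surface, had 108 and 95.7 CPM in insulin-depleted libraries, against 99.4 and 99.0 CPM in non-depleted libraries. Both genes overlapped between groups.

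The exporters of the early secretory route and mitochondria were also steady. Slc30a5 and Slc30a7, which supply zinc to enzymes of that route, had 94.8 and 85.0 CPM and 114 and 104 CPM in insulin-depleted libraries. Non-depleted replicates 1 and 2 had 92.7 and 88.8 CPM of Slc30a5 and 110.2 and 99.8 CPM of Slc30a7. Slc30a9, linked to mitochondrial zinc, had 131 and 134 CPM in insulin-depleted libraries, against 137 and 131 CPM in non-depleted libraries. Slc30a6, the partner of the Slc30a5 protein, averaged 15.1 ± 0.909 CPM in insulin-depleted and 14.7 ± 0.0333 CPM in non-depleted libraries (SD, n = 2 each). Every one of these genes overlapped between groups. Other exporters were barely present. Slc30a2 had 0.551 to 1.03 CPM over the 4 libraries, the manganese exporter gene Slc30a10 had 2 counts in non-depleted replicate 2 and 0 elsewhere, and Slc30a3, which fills synaptic vesicles, had 0 counts in every library. A count of 0 allows up to 0.156 and 0.0463 CPM in insulin-depleted libraries, and up to 0.0618 and 0.0516 CPM in non-depleted libraries, for counting error only. If each fragment added 2 counts, these limits would be 0.311 and 0.0925 CPM in insulin-depleted libraries, and 0.124 and 0.103 CPM in non-depleted libraries.

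Zinc importers were led by Slc39a1, a surface importer, with 235 ± 32.3 TPM in insulin-depleted and 222 ± 20.6 TPM in non-depleted libraries (SD, n = 2 each). Its CPM were 182 and 145 in insulin-depleted libraries, against 168 and 142 in non-depleted libraries. Of its 31-base stretches 27.7% occur in other genes, among them the pseudogene Slc39a1-ps, which took at most 0.172 CPM in any library. Reads that fit several genes may have been left out, so the level of Slc39a1 is uncertain. Slc39a6, also at the surface, had 117 and 98.9 CPM in insulin-depleted libraries, against 111 and 92.7 CPM in non-depleted libraries. For both, replicate 1 was the higher library of each group and the groups overlapped. Slc39a9, of the Golgi apparatus, had 138 and 142 CPM in insulin-depleted libraries, against 142 and 145 CPM in non-depleted libraries. Slc39a14, which also carries iron and manganese, had 57.9 and 52.1 CPM in insulin-depleted libraries, against 56.1 and 55.2 CPM in non-depleted libraries.

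Slc39a3, of the cell surface, had 32.2 and 39.7 CPM in insulin-depleted libraries, against 33.9 and 39.6 CPM in non-depleted libraries. Slc39a11 had 27.8 and 27.1 CPM in insulin-depleted libraries, against 24.9 and 28.8 CPM in non-depleted libraries. Slc39a10, the close relative of Slc39a6, had 25.8 and 23.7 CPM in insulin-depleted libraries, against 28.4 and 23.3 CPM in non-depleted libraries. These 3 importers overlapped between groups. Below 20 CPM, Slc39a7, which releases zinc from the endoplasmic reticulum, had 12.6 to 22.2 CPM over the 4 libraries, and Slc39a13, of the Golgi and vesicles, 13.3 to 20.1 CPM. Of the exon sequence of Slc39a7, 76.8% of 31-base stretches also belong to the overlapping gene Gm20427 on the same strand, so the level of Slc39a7 is uncertain. Gm20427 itself took at most 0.0688 CPM in any library. Slc39a5, Slc39a4, Slc39a8 and Slc39a2 lay between 0.278 and 4.21 CPM. Slc39a12, best known from brain, had 2 and 8 counts in insulin-depleted libraries, against 0 in both non-depleted libraries.

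The abundant metallothioneins kept their levels. Mt2 had 1099 and 1115 CPM in insulin-depleted libraries, against 1138 and 1142 CPM in non-depleted libraries. Its insulin-depleted libraries both lay lower, by a log2 fold change of -0.05 with an interval of -0.24 to 0.15, which did not pass the test. Mt1 had 877 and 838 CPM in insulin-depleted libraries, against 929 and 833 CPM in non-depleted libraries, and overlapped. The gene Gm45774 runs opposite to Mt2 and holds 58.1% of its 31-base stretches. It took 4.56 and 9.61 CPM in insulin-depleted libraries, against 4.82 and 11.2 CPM in non-depleted libraries. Reads that fit both genes may have been left out of both, so the level of Mt2 is uncertain too. Mtf1, the activator, had 56.8 and 56.2 CPM in insulin-depleted libraries, against 53.4 and 58.0 CPM in non-depleted libraries. Mt3, the form best known from brain, was scarce and had 10 and 84 counts in insulin-depleted libraries, against 99 and 104 counts in non-depleted libraries. Mt4, known from stratified epithelium, had 0 counts in every library.

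Iron storage and export were steady between replicates. Of the iron uptake genes, Tfrc and Slc11a2 were not, although their groups were level. Ftl1 had 1434 and 1358 CPM in insulin-depleted libraries, against 1454 and 1374 CPM in non-depleted libraries. Of its 31-base stretches 64.2% occur in other genes, among them the pseudogene Ftl1-ps1, so reads could be split among them or left out. Ftl1-ps1 took 5.14 and 6.48 CPM in insulin-depleted libraries, against 4.27 and 6.80 CPM in non-depleted libraries. Fth1 had 482 and 419.6 CPM in insulin-depleted libraries, against 471 and 434 CPM in non-depleted libraries. Slc40a1, which encodes ferroportin, the only known iron exporter, had 101 and 109 CPM in insulin-depleted libraries, against 99.9 and 109 CPM in non-depleted libraries. Each of the 3 overlapped between groups, and the 2 libraries of a group stayed within 1.15-fold.

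Tfrc, the transferrin receptor, had 237 and 157 CPM in insulin-depleted libraries, against 240.2 and 151 CPM in non-depleted libraries. Slc11a2, which carries iron out of the endosome after transferrin uptake, had 82.5 and 51.1 CPM in insulin-depleted libraries, against 83.8 and 49.8 CPM in non-depleted libraries. Both were higher in replicate 1 of either group, by 1.51-fold in insulin-depleted and 1.59-fold in non-depleted libraries for Tfrc, and by 1.61-fold and 1.68-fold in the same order for Slc11a2. Slc11a1, a metal transporter of macrophage phagosomes, lay between 3.89 and 5.42 CPM and was higher in replicate 2 of both groups.

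Copper genes stood at moderate levels. Slc31a1, the importer CTR1, had 73.1 and 57.7 CPM in insulin-depleted libraries, against 67.2 and 57.2 CPM in non-depleted libraries. Slc31a2, its intracellular relative, had 28.4 and 29.6 CPM in insulin-depleted libraries, against 32.1 and 30.0 CPM in non-depleted libraries, so that both insulin-depleted libraries lay lower. Its log2 fold change of -0.10 (interval -0.36 to 0.15) did not pass the test. Atp7a, the pump of most tissues, had 58.3 and 52.3 CPM in insulin-depleted libraries, against 56.1 and 52.3 CPM in non-depleted libraries. Atp7b, the pump known from liver, had 52 and 264 counts in insulin-depleted libraries, against 212 and 273 counts in non-depleted libraries. In CPM it averaged 3.38 ± 0.971 in insulin-depleted and 4.53 ± 0.231 in non-depleted libraries (SD, n = 2 each). Per length Atp7a stood above Atp7b in every library, at 20.7 to 22.4 TPM against 1.39 to 2.50 TPM.

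No metal-handling gene differed between the groups by the test. Of the 39 genes, 35 had enough counts to be tested, 24 of them with a mean of at least 20 CPM. Among the 35, 0 were called (edgeR quasi-likelihood test, adjusted p under 0.05), 0 had an unadjusted p under 0.05, and every adjusted p was 1.00. DESeq2 and limma-voom also called 0, as did edgeR with the replicate number as a block, which called 0.0456% of all genes tested. Of all 19723 genes tested, 0.0101% were called, and these were Ins1 and Ins2. An unadjusted p under 0.05 was reached by 0.416% of genes. Log2 fold changes lay above 0 for 15 of the 35 and below 0 for 20, with a median of -0.01 beside -0.0025 over all genes tested. For insulin-depleted libraries the higher of the pair was under the lower non-depleted value in 4 of the 35, or 11.4%, namely Mt2, Slc31a2, Mt3 and Atp7b, against 9.33% of all genes tested. The reverse order held for 0 of the 35, against 10.2% of all genes tested.

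Precision in the fit on group alone set how small a change could have been seen. There a difference between replicates 1 and 2 counts as spread, even where both groups share it. If equal numbers mark shared material, these intervals may be too wide, and intervals with a replicate block are not given. For the 24 genes of at least 20 CPM, fold changes lay within -0.10 to 0.08 on the log2 scale, and the half-width of the 95% interval had a median of 0.25, from 0.18 to 0.85. The widest were those of Slc11a2 (-0.87 to 0.84) and Tfrc (-0.75 to 0.75), whose libraries differed within each group. Of the 24, 95.8% had a log2 fold change within 0.1 of 0, beside 92.7% of 7967 other genes at that level. The largest difference of the set, named after its values were seen, was that of Mt3, with a log2 fold change of -0.99 (interval -2.10 to 0.11, edgeR unadjusted p = 0.0702, adjusted p = 1.00). Its size depended on insulin-depleted replicate 1, which had 10 counts. The log2 fold change of Mt3 was -0.58 without that library and -1.87 without insulin-depleted replicate 2. Atp7b had -0.40 (interval -1.04 to 0.23), which was -0.17 without insulin-depleted replicate 1 and -0.74 without insulin-depleted replicate 2.

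**Figure D2:**
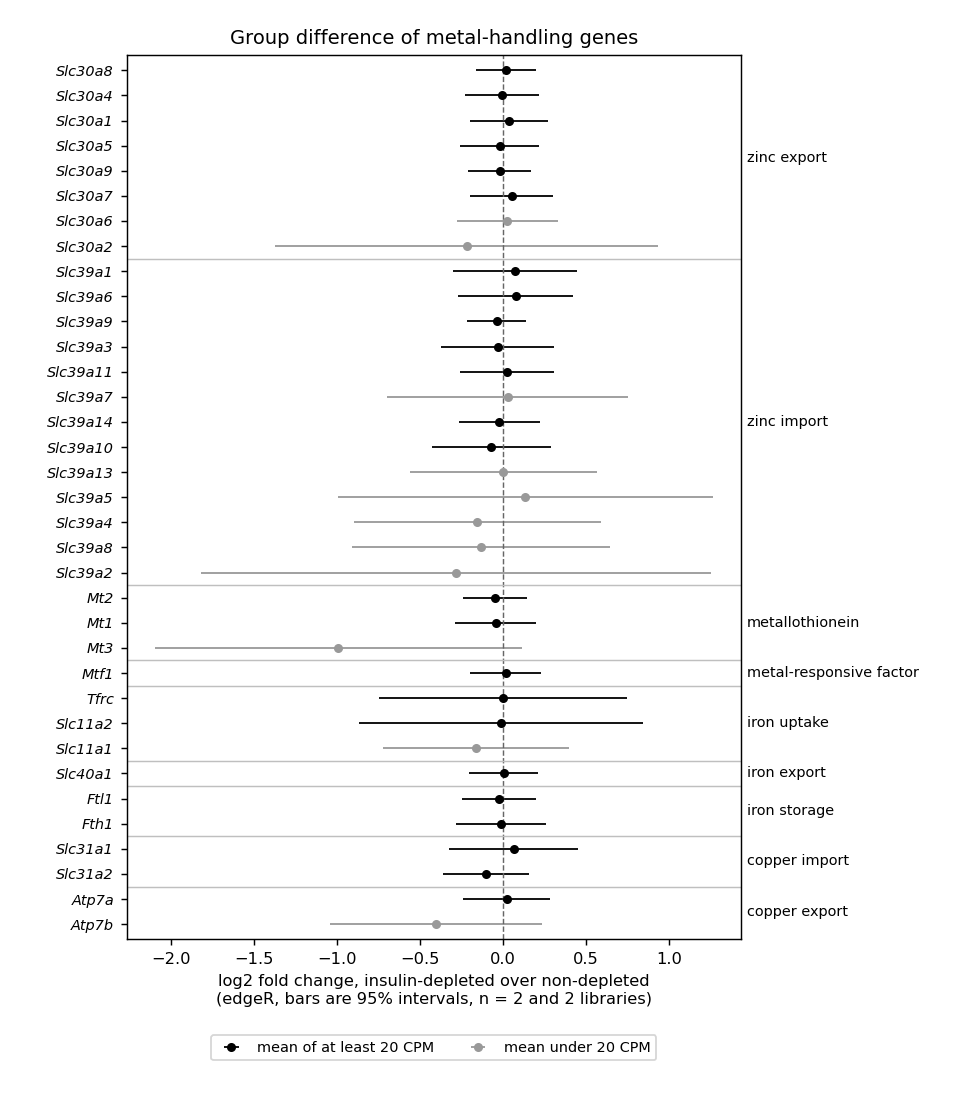
Log2 fold change of insulin-depleted over non-depleted libraries (edgeR on group alone, bars are 95% intervals, n = 2 each) for the 35 tested genes, black for a mean of at least 20 CPM and grey below. All intervals cross 0, and Mt3 at -0.99 lies furthest from it.

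Summed by metal and direction, the groups were close as well. Zinc exporters summed to 722 ± 27.0 CPM in insulin-depleted and 716 ± 21.7 CPM in non-depleted libraries, a ratio of 1.01. For zinc importers the sums were 599 ± 30.8 and 589 ± 19.3 CPM in the same order, with a ratio of 1.02, and for iron storage 1847 ± 98.0 and 1866 ± 82.1 CPM, with a ratio of 0.990. Metallothioneins had 1965 ± 16.4 CPM in insulin-depleted and 2023 ± 64.9 CPM in non-depleted libraries (SD, n = 2 each), a ratio of 0.971. With insulin counts kept in the totals that ratio was 1.01, and the ratio of iron storage was 1.03. Copper export went from 0.999 to 1.04. The direction of these ratios depends on the scaling. The differences were smaller than the SD of at least one group in every class. Relative to its level, iron uptake differed most between libraries, 1.52-fold in the insulin-depleted and 1.59-fold in the non-depleted group, with 324 and 213 CPM in insulin-depleted libraries, against 328 and 207 CPM in non-depleted libraries.

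**Figure D3:**
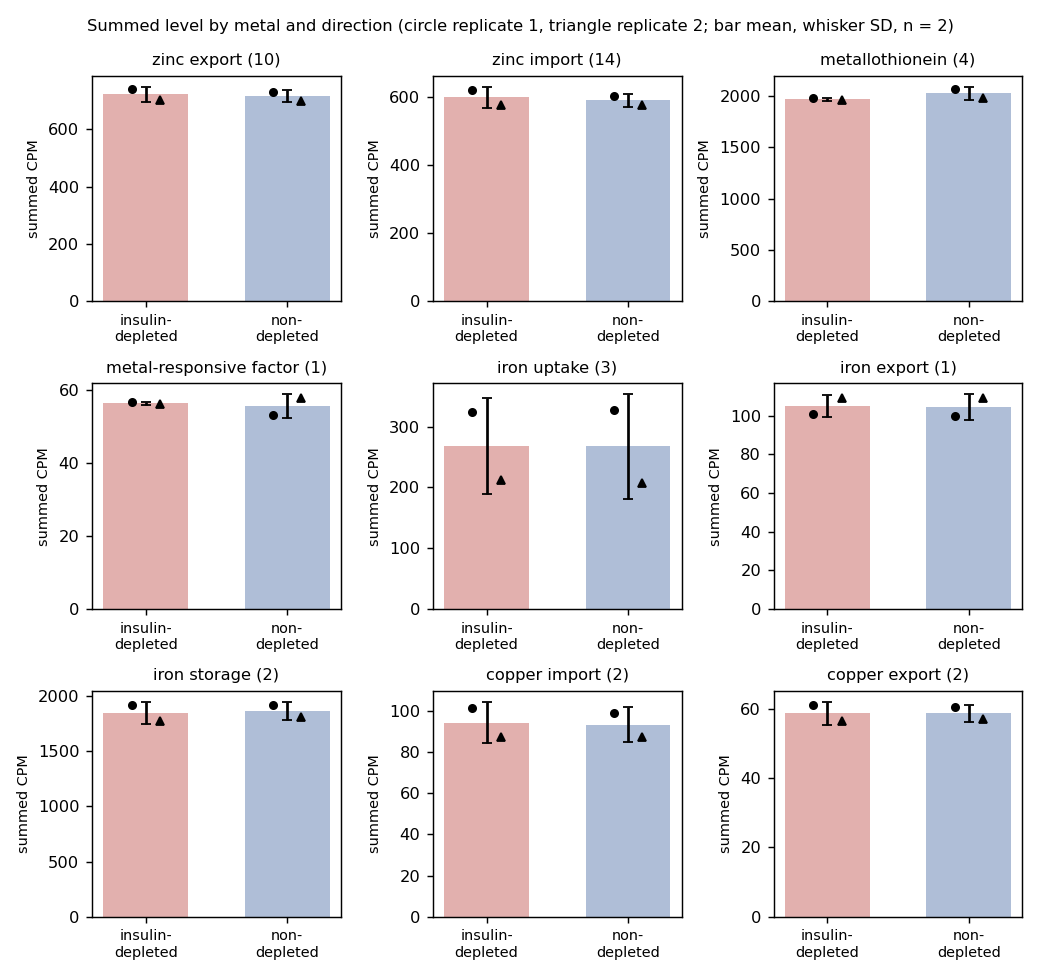
Summed CPM (totals without Ins1 and Ins2) of each class of metal-handling genes, with the number of genes in brackets; bars are group means, whiskers the SD of 2 libraries, circles replicate 1 and triangles replicate 2. The bars of the 2 groups are nearly level in every panel, while in iron uptake replicate 1 stands above replicate 2 in both groups.

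Single libraries of one group differed by more than the groups of 2 did, with a median absolute log2 fold change between groups of 0.02 for the 24 genes of at least 20 CPM. The 2 measures are unlike. Averages of 2 libraries vary less than single libraries, and a replicate difference that both groups share cancels between them. Of the 24 genes of at least 20 CPM, 15 were higher in replicate 1 of both groups, 5 were higher in replicate 2 of both, and 4 changed order. The median absolute log2 ratio of the 2 libraries was 0.13 in insulin-depleted and 0.12 in non-depleted libraries, as for the other genes at that level (0.13 and 0.12). Tfrc and Slc11a2 reached 1.5-fold in the same direction in both groups, which is 8.33% of the 24, beside 1.73% of all tested genes at that level. At 1 CPM or more, Slc39a5 joined them, making 3 of 33 or 9.09%, beside 4.32% of all genes. Slc39a5, an importer known from pancreatic acinar cells and gut, had 4.05 and 2.04 CPM in insulin-depleted libraries, against 3.42 and 1.96 CPM in non-depleted libraries. The acinar sums given above were higher in the same libraries. So were, by smaller ratios, the sums of ductal, alpha, delta and gamma, and stellate cell markers. The part of any cell type in these differences was not tested. Slc39a7 lay the other way, 1.38-fold higher in replicate 2 of the insulin-depleted and 1.76-fold higher in replicate 2 of the non-depleted group. Libraries that share a number may share RNA, so the agreement of the 2 groups is not independent evidence.

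**Figure D4:**
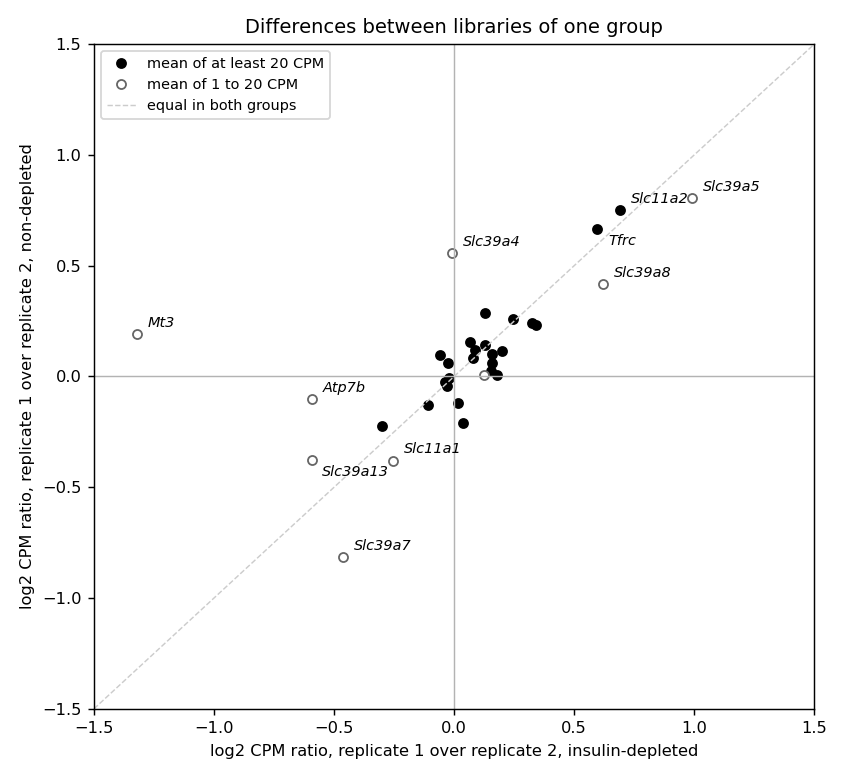
Log2 ratio of CPM in replicate 1 over replicate 2 within the insulin-depleted group (x axis) and within the non-depleted group (y axis) for the 33 genes of at least 1 CPM; filled points have a mean of at least 20 CPM and the dashed line marks equal ratios. Slc39a5, Slc11a2 and Tfrc lie at the upper right, Slc39a7 at the lower left, and Mt3 stands off the line at the left.

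Other genes of metal biology gave a similar picture. Of 19 tested genes on a list of other zinc genes, 6 lay above 0 and 13 below, with 0 called and a median log2 fold change of -0.03. That list is broad, and not every gene on it needs zinc. Cpe and Pcsk2, prohormone-processing enzymes of which the first needs zinc, had 3219 ± 121 and 2310.2 ± 57.8 CPM in insulin-depleted libraries, against 3181 ± 80.2 and 2277 ± 96.2 CPM in non-depleted libraries (SD, n = 2). Of 36 other iron genes, 18 lay above and 18 below 0, with 0 called. Hmox1, the haem oxygenase that frees iron, had 237 ± 39.9 CPM in insulin-depleted and 242 ± 42.6 CPM in non-depleted libraries, and Pcbp1, an iron chaperone, 188 ± 9.51 and 195 ± 8.26 CPM. Of 25 other copper genes, 11 lay above and 14 below 0, with 0 called. Pam, the copper enzyme that amidates peptide hormones, had 1775 ± 118 CPM in insulin-depleted and 1774 ± 136 CPM in non-depleted libraries, and Prnp 446 ± 31.6 and 445 ± 28.3 CPM (SD, n = 2 each). The largest differences at 5 CPM or more were those of Cox11 (-0.42) for copper, Blvrb (0.15) for iron and Gpr39 (-0.09) for zinc.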

How the data were processed

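RNA of mouse islets was sequenced in 4 libraries. The deposited table holds raw counts per gene. Its non-depleted columns were entered under the unit expected count, since their deposited headers contain the word size, but all their values are whole and were used as they stand. The word may mean a size selection step, and the other group's headers do not have it. Per the submitters' processing notes, cutadapt 4.8 and STAR 2.7.11b are listed; which program counted reads, and whether by strand, is not given in the sources used here. All 55536 genes matched GENCODE M21 (GRCm38).

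The test was edgeR's (version 4.0.16, R 4.3.3; filterByExpr, TMM, quasi-likelihood test on group alone, Benjamini-Hochberg adjustment over 19723 genes, threshold 0.05). Its code was also run on simulated counts. These held no differences shared by replicate number, so that run cannot show how the test behaves on these libraries. DESeq2 1.42.0 and limma-voom (limma 3.58.1) were alternatives. Intervals are 95% and came from the moderated degrees of freedom. TPM used the union of exons. With 2 against 2 libraries an exact two-sided permutation p cannot go below 0.333, so none was run on single values. Of counts from 2 to 9, 80.0 to 84.0% were even in the 4 libraries, so fragments may add 2 counts each. Genes of at least 20 CPM, and genes of at least 1 CPM that differed at least 1.5-fold between the libraries of each group, are given by library. Members, lists and rules were chosen with earlier results of these data known. Markers of ductal, beta, alpha, delta and gamma, immune, endothelial, stellate and erythroid cells had 0 genes called other than Ins1 and Ins2.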

Additional observations from a re-analysis of the deposited data

How the results depend on the processing

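No metal-handling gene was called under any alternative: DESeq2, limma-voom, library totals without Ins1 and Ins2, no filter on low counts, counts divided by 2, a replicate block, or leaving out each library in turn. A lone library left in a group was then assumed to vary like the others. With the replicate block, 2 genes of the whole table were called higher and 7 lower, against 0 and 2 on group alone, and 0 of them were metal-handling genes. The replicate ratios of the 2 groups correlated at 0.42 across tested genes, with 0.05 CPM added to each level. Genes of low counts, whose ratios are noisy, enter that value. Of the 24 metal-handling genes of at least 20 CPM, 15 were higher in replicate 1 of both groups. Another 5 were higher in replicate 2 of both, and 4 changed order. The labels do not state that a number marks shared material, and this was not tested. With insulin counts kept in the totals, the ratios of summed CPM were 1.01 for metallothioneins, 1.03 for iron storage and 1.04 for copper export. Without them these ratios were 0.971, 0.990 and 0.999 in the same order. The median log2 fold change of the tested members ranged from -0.02 to -0.0066 under the alternatives with all libraries and from -0.07 to 0.03 with 1 library left out. The first 7 places by level per length held the same genes by longest and by principal transcript. Below them, by principal transcript, Slc39a6 moved to rank 12, against 9 by the union of exons, Slc30a1 to 15, against 10, Slc30a5 to 10, against 14, and Slc40a1 to 8, against 15, and by longest transcript Slc30a1 moved to rank 14. Depth limits the genes under 1 CPM.

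No fold change that changed sign had passed the test. Tfrc had -0.021 with limma-voom and -0.0023 with no filter. Slc39a13 had -0.00087 with no filter and -0.0047 with the replicate block. Slc11a2 had 0.0061 with the replicate block, and Slc39a5 -0.042 with limma-voom. With 1 library left out, log2 fold changes ranged from -0.073 to 0.034 for Ftl1, -0.13 to 0.051 for Mt1, -0.12 to 0.095 for Fth1, -0.11 to 0.24 for Slc39a1, -0.34 to 0.39 for Tfrc, -0.073 to 0.070 for Slc30a4, -0.059 to 0.23 for Slc39a6, -0.066 to 0.13 for Slc30a1, -0.12 to 0.24 for Slc31a1 and -0.11 to 0.068 for Slc30a5. They ranged from -0.045 to 0.060 for Slc40a1, -0.059 to 0.025 for Slc30a9, -0.40 to 0.43 for Slc11a2, -0.027 to 0.14 for Slc30a7, -0.18 to 0.097 for Slc39a3, -0.061 to 0.12 for Slc39a11, -0.31 to 0.48 for Slc39a7, -0.028 to 0.068 for Mtf1, -0.067 to 0.11 for Atp7a and -0.11 to 0.065 for Slc39a14. Further ranges were -0.043 to 0.10 for Slc30a6, -0.21 to 0.095 for Slc39a10, -0.33 to 0.25 for Slc39a13, -0.42 to 0.61 for Slc39a5, -0.33 to 0.028 for Slc11a1, -0.42 to 0.16 for Slc39a4, -0.46 to 0.18 for Slc39a8, -0.61 to 0.32 for Slc30a2 and -1.02 to 0.38 for Slc39a2. The cause was not tested.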

Other observations

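Among the other iron genes, 19 had a mean of at least 20 CPM, and 3 of these, or 15.8%, differed at least 1.5-fold between replicates 1 and 2 in the same direction in both groups, beside 1.73% of all tested genes at that level. At 1 CPM or more there were 4 of 30, or 13.3%, beside 4.32% of all genes. Similar shares were found in the lists of other copper and other zinc genes. At 20 CPM or more they were 2 of 11 (18.2%) for copper and 1 of 11 (9.09%) for zinc. At 1 CPM or more they were 2 of 25 (8%) for copper and 3 of 16 (18.75%) for zinc. Cp is on both the iron and the copper list. These counts were chosen after the values were seen. All 4 iron genes were higher in replicate 1, and a pair of values below gives replicate 1 and then replicate 2. Steap4, a metalloreductase, had 185 and 69.2 CPM in insulin-depleted libraries, against 178 and 71.1 CPM in non-depleted libraries. Cp, the ferroxidase ceruloplasmin, had 69.9 and 40.5 CPM in insulin-depleted libraries, against 69.6 and 43.9 CPM in non-depleted libraries. Lcn2, which binds iron-carrying siderophores, had 69.7 and 37.3 CPM in insulin-depleted libraries, against 77.0 and 37.5 CPM in non-depleted libraries. Hamp, which encodes the iron hormone hepcidin, had 13.4 and 4.69 CPM in insulin-depleted libraries, against 11.6 and 4.20 CPM in non-depleted libraries. Ireb2, which encodes an iron regulatory protein, had 204 and 199 CPM in insulin-depleted libraries, against 199 and 193 CPM in non-depleted libraries. Acinar markers were higher in the same libraries, with sums of 19523 and 8186 CPM in insulin-depleted libraries, against 19531 and 8147 CPM in non-depleted libraries. Summed macrophage and other immune markers were not, with 108 and 121 CPM in insulin-depleted libraries, against 114 and 126 CPM in non-depleted libraries. Some genes of that list, such as Cd14, were higher in replicate 1. Sums of ductal, alpha, delta and gamma, and stellate cell markers were also higher in replicate 1 of both groups, by smaller ratios. Endothelial and erythroid sums were lower. At 20 CPM or more, 20 of 21 acinar and 2 of 6 ductal markers differed at least 1.5-fold in both groups. The part of any cell type in these differences was not tested.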
